A study of Neotoma lepida with 16 samples.

Results

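Enzymes that break down tyrosine, histidine, serine and lysine, together with aminotransferases that move amino groups between amino acids and keto acids, were followed in the liver of desert woodrats (Neotoma lepida) fed 1 of 2 toxic plants. The set held the tyrosine enzymes Tat, Hpd, Hgd and Fah, the histidine enzyme Hal, the serine enzyme Sds, the lysine enzyme Aass, and the aminotransferases Got1 and Gpt. All probes whose gene name on the array, after removal of the suffix for predicted genes, was 1 of these 9 symbols were taken. They were 9 probes for 8 genes, out of 41012 probes for 35561 genes or transcripts. Gpt had no probe under that name. All 8 genes found were bright enough to be tested, among 26496 genes in all.

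The animals were caught in the wild in 2 populations, kept in single cages on rabbit chow for 3 months, and then given chow with rising amounts of plant material over 5 days. Mojave woodrats fed creosote bush, Mojave woodrats fed juniper, Great Basin woodrats fed creosote bush and Great Basin woodrats fed juniper made up 4 groups of 4 animals. The labels give no age for any group. The trial addressed how liver gene expression answers plants with different defence compounds in animals of each population. Every group ate a plant, and no group was kept on chow alone, so "higher" and "lower" below place creosote against juniper and do not say which plant changed a gene. All 4 Mojave animals on creosote were male, while each of the other groups held 2 males and 2 females.

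Liver RNA of each animal was labelled with the red dye Cy5 and hybridised on a rat array against the same pool of all 16 animals in the green dye Cy3. A value is therefore a log2 ratio of 1 animal to the pool: 0 is the average animal, and 1 is a doubling. The red signal was well above background for 45.6% to 75.9% of probes per array, and for 45.6% to 51.8% on slide 1. Each of the 4 slides held 1 animal of every group, but creosote arrays always lay at positions 1 and 2 and juniper arrays at 3 and 4, so that diet cannot be told apart from position. Great Basin arrays lay at positions 1 and 4 and Mojave arrays at 2 and 3, and population cannot be told apart from position in the same way. Albumin, transthyretin and the other hepatocyte markers tested, 9 in all, were well above background on all 16 arrays.

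The liver is where surplus amino acids are dismantled. In tyrosine breakdown, Tat removes the amino group, Hpd makes homogentisate, Hgd opens its ring, and Fah splits the final product into fumarate and acetoacetate. Hal removes ammonia from histidine to give urocanate, and Sds turns serine, and also threonine, into keto acids and ammonia. Aass carries out the opening steps of lysine breakdown, and Got1 exchanges amino groups between aspartate and glutamate in the cytosol. In laboratory rats, Tat and Sds are classic examples of liver genes raised by glucocorticoids, glucagon, fasting or a protein-rich diet.

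Creosote livers held more transcript of Tat, Hal and Sds than juniper livers in both populations. Adjusted for sex in the model, the differences in Mojave woodrats were 1.95-fold for Tat, 1.94-fold for Hal and 2.65-fold for Sds. In Great Basin woodrats they were 2.66-fold for Tat, 2.34-fold for Hal and 2.04-fold for Sds. Fah, the last enzyme of the tyrosine pathway, was higher by 1.43-fold in Mojave animals and passed the test there. Got1, Hpd, Hgd and Aass did not pass in either population. In all, 4 of the 8 genes were higher on creosote and 0 lower in Mojave woodrats, and 3 were higher and 0 lower in Great Basin woodrats, at an adjusted p under 0.05 in limma. Over all genes tested, 3.83% were called higher and 5.73% lower in Mojave animals, and 2.08% higher and 1.95% lower in Great Basin animals. Averaged over the populations, 4 of the 8 were higher and 0 lower, where 5.72% of all genes were called higher and 6.38% lower. The median log2 difference over the 8 genes was 0.61 in Mojave and 0.68 in Great Basin woodrats, while that over all genes was -0.00386 and -0.00559. The 8 genes were chosen with earlier results of these data known, so their counts and medians are descriptions.

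Tat was measured by probe A_44_P515484 for transcript NM_012668. Its log2 ratios were 0.65, 0.40, -0.06 and -0.19 in Mojave animals on creosote, against -0.53, -0.78, -0.28 and -0.62 in Mojave animals on juniper. They were 0.01, 0.10, 0.93 and 0.90 in Great Basin animals on creosote, against -0.85, -0.81, -1.32 and -0.74 on juniper. The diet groups did not overlap in either population, though the lowest Mojave creosote animal lay close to the highest juniper one. The diet difference, adjusted for sex, was 0.96 ± 0.20 (SE, n = 4 per group) in Mojave woodrats, with an adjusted p of 0.00787 in limma. In Great Basin woodrats it was 1.41 ± 0.19 (limma, adjusted p = 0.000565). Without adjustment for sex, the Mojave group means were 0.20 on creosote and -0.55 on juniper, which lie closer together than the adjusted difference. On each of the 4 slides the creosote animal exceeded the juniper animal. The slide differences, not adjusted for sex, were 0.22 to 1.17 in Mojave and 0.91 to 1.75 in Great Basin woodrats. In male animals alone the differences were 0.85 in Mojave (limma, adjusted p = 0.0813) and 1.08 in Great Basin woodrats (adjusted p = 0.135) and were not called. Without the arrays of slide 4 the Mojave difference was 0.87 and was not called either (limma, adjusted p = 0.14).

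Hal had 2 probes. The tested one, A_44_P1038341 for NM_017159, gave log2 ratios of 0.32, 0.13, 0.71 and 0.64 in Mojave animals on creosote, against -0.67, -0.37, -0.36 and -0.46 on juniper. In Great Basin animals it gave 0.62, 0.25, 0.61 and 0.96 on creosote, against -0.66, -0.78, -0.65 and -0.38 on juniper. Every creosote animal lay above the pool and every juniper animal below it. The differences were 0.96 ± 0.16 in Mojave (SE, n = 4 per group; limma, adjusted p = 0.00179) and 1.23 ± 0.15 in Great Basin woodrats (limma, adjusted p = 0.000311). The second probe, A_44_P245474 for BC089809, was well above background on 0 of 16 arrays, was not tested, and differed by -0.01 in Mojave and 0.14 in Great Basin woodrats. In males alone the Great Basin difference was 0.95 and missed the threshold (limma, adjusted p = 0.0886). With each array centred on its median in place of loess, the Mojave difference of the tested probe was 0.54 and missed the threshold (limma, adjusted p = 0.0956).

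Sds, measured by probe A_42_P792945 for NM_053962, had the largest Mojave difference of the 8 genes. The log2 ratios were 1.35, 0.56, 1.18 and 1.11 in Mojave animals on creosote, against -0.41, 0.04, -0.74 and -0.79 on juniper. In Great Basin animals they were 0.41, 0.36, 0.52 and 0.45 on creosote, against -0.92, -0.50, -0.60 and -0.38 on juniper. The Great Basin creosote animals lay close together, with an SD of 0.07, against 0.34 in Mojave creosote animals. The diet difference, adjusted for sex, was 1.41 ± 0.18 in Mojave (SE, n = 4 per group; limma, adjusted p = 0.000381) and 1.03 ± 0.17 in Great Basin woodrats (limma, adjusted p = 0.00257). Without that adjustment, the Mojave means were 1.05 on creosote and -0.48 on juniper, which lie further apart than the adjusted difference. In males alone the Great Basin difference was 0.87 and was not called (limma, adjusted p = 0.157), and without slide 2 it was 1.01 and was not called (adjusted p = 0.0564). A further probe, X13119, described as rat serine dehydratase DNA, carries no gene symbol and lies outside the rule. It was well above background on 2 of 16 arrays and was not tested.

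**Figure D1:**
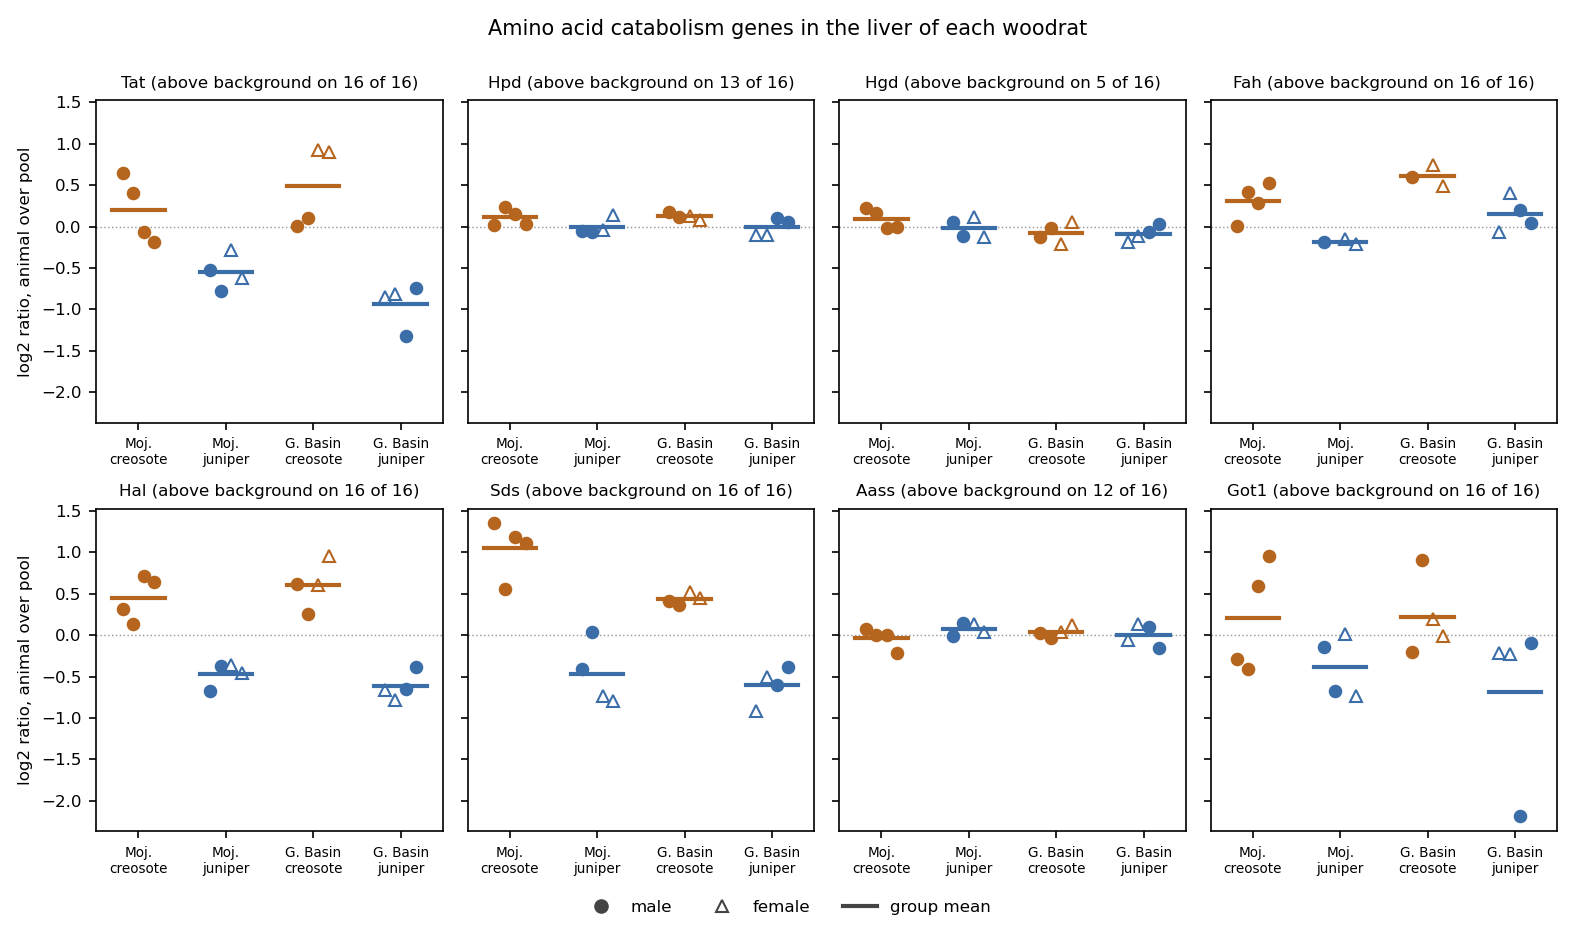
Log2 ratio of each animal to the pool (vertical axis) for the 8 genes, with 1 point per animal, filled circles for males, open triangles for females and a line at each group mean; the dotted line at 0 is the pool. For Tat, Hal and Sds the creosote animals (brown) lie above the juniper animals (blue) of their population, whereas Hpd, Hgd and Aass stay within -0.22 and 0.24, and Got1 has 1 Great Basin juniper animal at -2.19.

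Fah was the only other member of the tyrosine pathway with a called difference. Probe A_44_P290168 for NM_017181 gave log2 ratios of 0.01, 0.42, 0.29 and 0.52 in Mojave animals on creosote, against -0.19, -0.15 and -0.21 on juniper. In Great Basin animals it gave 0.60, 0.74 and 0.49 on creosote, against -0.06, 0.41, 0.20 and 0.04 on juniper. In each of the groups with 3 values, the spot of animal 2 had been marked as non-uniform by the scanner software and was left out. The diet groups did not overlap. The difference was 0.51 ± 0.14 in Mojave woodrats (SE, n = 4 and 3; limma, adjusted p = 0.0364). It was 0.46 ± 0.13 in Great Basin woodrats, with a 95% interval of 0.18 to 0.74, and missed the threshold (limma, adjusted p = 0.0711). With slide as a block, the Great Basin difference was 0.53 and passed (limma, adjusted p = 0.0183). Averaged over the populations the difference was 0.49 ± 0.10 (limma, adjusted p = 0.00472). The averaged call was lost with median centring (0.34; limma, adjusted p = 0.106), in males (0.49; 0.104), without slide 1 (0.51; 0.064) and without slide 2 (0.37; 0.104).

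The Fah calls lay close to the threshold and moved with single animals. The Mojave call was lost without Mojave creosote animal 2, 3 or 4 (limma, adjusted p = 0.0843, 0.0542 and 0.0776) or Mojave juniper animal 1, 2, 3 or 4 (0.135, 0.0609, 0.0621 and 0.0775). It was also lost without Great Basin creosote animal 1 (0.0546) or Great Basin juniper animal 4 (0.0585), which enter through the common estimate of spread, the sex term and the adjustment over all genes. The Great Basin call was gained without Great Basin juniper animal 2 (limma, adjusted p = 0.0327) or Mojave creosote animal 1 (0.0356). With each array centred on its median in place of loess, the Mojave difference was 0.08 and missed the threshold, and with the spots marked as non-uniform kept in, the Great Basin difference was 0.45 and passed (adjusted p = 0.0448). Where the call changed without an animal, the Mojave difference itself stayed between 0.44 and 0.53.

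Between Tat and Fah in the pathway, the probes for Hpd and Hgd were dim and showed no called difference. Hpd, on probe A_44_P179986 for NM_017233, was well above background on 13 of 16 arrays in the animal channel, and on 8 in the pool channel. Its log2 ratios were 0.02, 0.24, 0.15 and 0.03 in Mojave animals on creosote, against -0.05, -0.06, -0.04 and 0.14 on juniper. In Great Basin animals they were 0.18, 0.12, 0.13 and 0.08 on creosote, against -0.10, -0.10, 0.10 and 0.06 on juniper. The groups overlapped, and the differences were 0.09 ± 0.08 in Mojave and 0.13 ± 0.07 in Great Basin woodrats (SE; limma, adjusted p = 0.574 and 0.382). The 95% intervals reached from -0.08 to 0.26 in Mojave and from -0.02 to 0.29 in Great Basin woodrats. When the red channel was analysed alone, the Great Basin difference was 0.30 and passed (limma, adjusted p = 0.0252). Over the other settings the Mojave difference ran from 0.01 to 0.44 and was not called. The limit given below for Hgd, that the offset draws dim ratios towards 0, applies to Hpd too.

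Hgd, on probe A_44_P338149 for NM_001012145, was well above background on only 5 arrays in the animal channel, and on 0 in the pool channel. Group means were 0.09 ± 0.12 in Mojave creosote, -0.02 ± 0.13 in Mojave juniper, -0.08 ± 0.12 in Great Basin creosote and -0.08 ± 0.09 in Great Basin juniper animals (SD, n = 4 each). The differences had 95% intervals of -0.11 to 0.29 in Mojave and -0.17 to 0.19 in Great Basin woodrats. The offset added to both dyes before the logarithm draws the ratios of such dim probes towards 0, so the intervals hold for the corrected signal and not for the transcript.

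Aass, on probe A_44_P347149 for XM_231524, was well above background on 12 arrays in the animal channel, and on 5 in the pool channel. Its log2 ratios were 0.08, 0.00, 0.00 and -0.22 in Mojave animals on creosote, against -0.01, 0.15, 0.13 and 0.04 on juniper. In Great Basin animals they were 0.03, -0.04, 0.04 and 0.12 on creosote, against -0.06, 0.13, 0.10 and -0.15 on juniper. The diet groups overlapped in both populations. The difference was -0.09 ± 0.09 in Mojave and 0.03 ± 0.08 in Great Basin woodrats (SE, n = 4 per group; limma, adjusted p = 0.617 and 0.901). Over the other settings it ran from -0.50 to 0.00 in Mojave and from -0.02 to 0.35 in Great Basin woodrats, and was not called. As for Hgd, the offset draws such dim ratios towards 0, so these values do not show that the transcript was unchanged.

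Got1, on probe A_44_P388973 for NM_012571, was well above background on all 16 arrays and had the largest standard errors of the 8 genes. The log2 ratios were -0.29, -0.41, 0.59 and 0.95 in Mojave animals on creosote, against -0.14, -0.68, 0.01 and -0.73 on juniper. In Great Basin animals they were -0.20, 0.91, 0.19 and -0.01 on creosote, against -0.22, -0.23, -2.19 and -0.10 on juniper. The groups overlapped in both populations. The difference was 0.71 ± 0.46 in Mojave, with a 95% interval of -0.26 to 1.68, and 0.91 ± 0.42 in Great Basin woodrats, with an interval of 0.01 to 1.81 (SE, n = 4 per group; limma, adjusted p = 0.41 and 0.289). Without the Great Basin juniper animal at -2.19 the Great Basin difference was 0.39 ± 0.32 (limma, adjusted p = 0.636).

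For alanine aminotransferase, the enzyme that the symbol Gpt stands for, the array carried a probe named Gpt1, which lies outside the rule for members. It was well above background on all 16 arrays. It differed by 0.14 ± 0.17 in Mojave and 0.40 ± 0.15 in Great Basin woodrats (SE, n = 4 per group) and was not called (limma, adjusted p = 0.699 and 0.18).

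**Figure D2:**
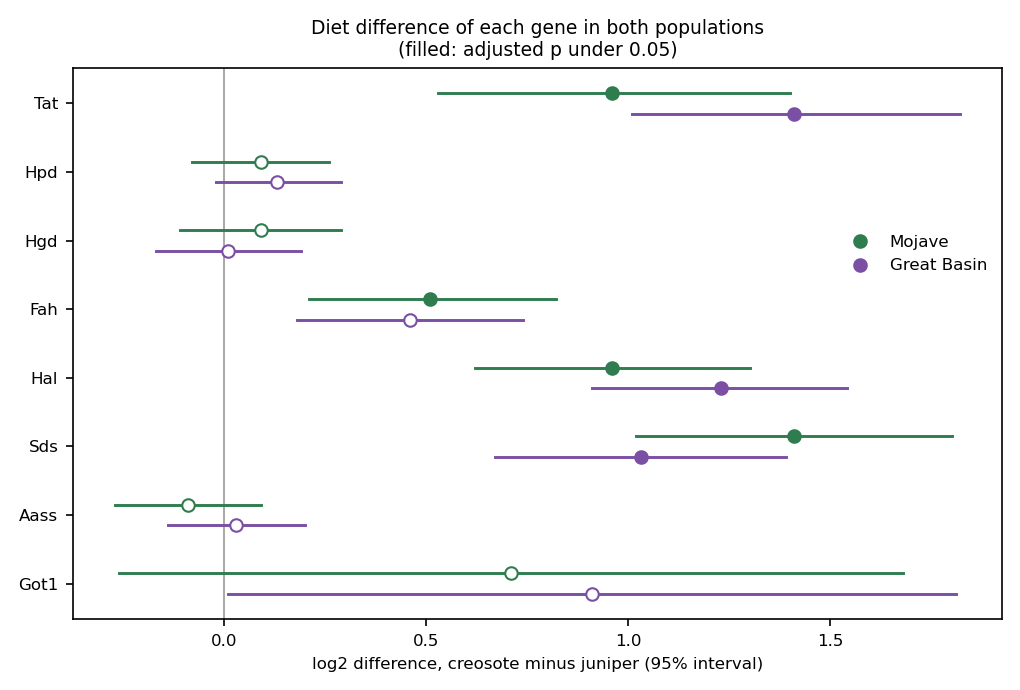
Creosote minus juniper on the log2 scale for each gene, in Mojave (green, upper) and Great Basin woodrats (purple, lower), with 95% intervals; filled points had a limma adjusted p under 0.05. Filled points stand at Tat, Hal and Sds in both populations and at Fah in Mojave woodrats, and the intervals of Got1 are the widest.

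The 2 populations were then set against each other on each diet. Of the 8 genes, 0 passed on creosote, where 0.0717% of all genes were called, 0 passed on juniper (0.0113% of all genes), and 0 passed averaged over the diets (0.034%). At an unadjusted p under 0.05, limma gave 3735 genes on creosote, 2125 on juniper and 2466 on average. The Mojave minus Great Basin difference of Fah was -0.28 on creosote and -0.34 on juniper, and neither was called (limma, adjusted p = 0.404 and 0.516). It lay below 0 on 3 of 3 slides with both values, on either diet, and its average was -0.31 ± 0.10 (limma, unadjusted p = 0.00686, adjusted p = 0.304). The difference of Sds on creosote was 0.50 ± 0.18 (limma, unadjusted p = 0.0163, adjusted p = 0.235) and lay above 0 on 4 of 4 slides. These slide differences, like those of Fah, were not adjusted for sex. On slides 2 and 3 a Mojave male was set against a Great Basin female. On slides 1 and 4, with males of both populations, the Sds difference was 0.77 and 0.20. The Mojave minus Great Basin difference of Tat on juniper was 0.37 ± 0.19 (limma, adjusted p = 0.654).

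The diet difference itself was not shown to depend on population for any of the 8 genes. The interaction, Mojave diet difference minus Great Basin diet difference, was -0.45 ± 0.28 for Tat, -0.27 ± 0.22 for Hal and 0.38 ± 0.25 for Sds (SE; limma, adjusted p = 0.534, 0.664 and 0.569). The 95% intervals were -1.04 to 0.14 for Tat, -0.73 to 0.20 for Hal and -0.16 to 0.91 for Sds. The test across all genes called 0 interactions, with 3443 at an unadjusted p under 0.05. With each array centred on its median in place of loess, 2430 interactions were called, and Tat was 1 of them (-0.94; limma, adjusted p = 0.0426).

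Animal-to-animal variation within the groups was compared between the genes. After the group means were removed, the 28 pairs of genes had Pearson correlations from -0.57 to 0.44 over the 16 arrays, with a median of -0.06, given here as a description. Tat, Hal and Sds were each higher on creosote than on juniper in both populations. Among them, Hal and Sds stood at 0.32, Hal and Tat at 0.06, and Sds and Tat at -0.06. Genes whose deviations followed the mean deviation of the set most closely, out of 10131 candidates with a symbol, included Pnma1 (r = 0.84), Olr360 (0.80), Ppard (0.78) and Sec24a (0.77). Among so many candidates over 16 arrays, some high correlations would arise by chance, so these are descriptions too. The mean deviation gives most weight to the genes with the widest spread, such as Got1. Of the 4 genes named, Sec24a passed a diet test, in Mojave animals, where it was lower on creosote by 0.46 (limma, adjusted p = 0.0184).

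Around the set, 65 further genes of amino acid metabolism were tested in 7 lists. Of these, 6 were higher and 0 lower on creosote in Mojave woodrats, and 6 were higher and 1 lower in Great Basin woodrats. Over all genes tested, 3.83% were called higher and 5.73% lower in Mojave, and 2.08% higher and 1.95% lower in Great Basin animals. These lists were chosen with results of the same animals known, so their counts are descriptions. Medians of the 7 lists lay between 0.00 and 0.10 in Mojave and between -0.01 and 0.26 in Great Basin woodrats.

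In the phenylalanine and tyrosine list, 1 of 7 genes passed in Mojave and 0 in Great Basin woodrats. This was Gchfr, the regulator of the enzyme that starts tetrahydrobiopterin synthesis, higher by 1.02 ± 0.16 in Mojave (limma, adjusted p = 0.00156) and by 0.47 in Great Basin woodrats (adjusted p = 0.102). Its interaction did not pass (limma, adjusted p = 0.316). In the histidine list, 0 of 4 passed in either population, and the largest value was that of the dipeptidase Cndp1 at 0.15 in Mojave animals. The probes of Cndp1, Ftcd and Mthfs in this list were about as dim as that of Hpd. Their mean log2 brightness was 6.42, 6.58 and 6.64, against 6.45 for Hpd. The offset draws such dim ratios towards 0, so these values do not show that the transcripts were unchanged. In the lysine list 0 of 9 passed in either population, and the largest values were those of the dehydrogenase Aldh7a1, at 0.47 in Mojave and 0.43 in Great Basin animals. Averaged over the populations, Aldh7a1 was higher by 0.45 and passed (limma, adjusted p = 0.0117). Beside the counts of these lists, 3.83% of all genes were called higher in Mojave and 2.08% in Great Basin woodrats. On average over the populations the share was 5.72%.

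Of the 18 genes around serine, glycine and threonine, 3 were higher in Mojave and 4 in Great Basin woodrats, and 0 were lower. The share called higher over all genes was 3.83% in Mojave and 2.08% in Great Basin woodrats. Gnmt, which methylates glycine and so uses up methyl groups, was higher by 1.27 in Mojave (limma, adjusted p = 2.84e-05) and 1.14 in Great Basin woodrats (8.17e-05). Gcsh, a carrier protein of the glycine cleavage system, was higher by 1.28 in Mojave (limma, adjusted p = 4.27e-06) and 0.54 in Great Basin woodrats (0.00218), whereas its second, dimmer probe stood at -0.08 and -0.17. Agxt, which transfers the amino group of alanine to glyoxylate, was higher by 0.45 in Mojave (limma, adjusted p = 0.0206) and 0.54 in Great Basin woodrats (0.00901). The second Agxt probe stood at 0.42 in Mojave (0.0211) and at 0.29 in Great Basin woodrats, where it was not called (0.134), and with median centring the Mojave difference of the tested probe was 0.02 (0.959). Dmgdh, which demethylates dimethylglycine, was higher by 0.62 in Great Basin woodrats (limma, adjusted p = 0.0218) and stood at 0.45 in Mojave woodrats (0.0806). The Agxt call in Mojave was lost without Mojave creosote animal 4 (0.0518) or Mojave juniper animal 1 (0.079) or 2 (0.0833). The Dmgdh call was lost without Great Basin creosote animal 3 (0.065) or Great Basin juniper animal 1 (0.0558) or 2 (0.051).

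Among 11 aminotransferases and glutamate enzymes, 1 was called in each population. For this and the next 2 lists, the shares over all genes in Mojave were 3.83% called higher and 5.73% lower. In Great Basin woodrats they were 2.08% higher and 1.95% lower. Oat, ornithine aminotransferase, was higher by 1.53 ± 0.33 in Great Basin woodrats (limma, adjusted p = 0.0153) and stood at 0.11 in Mojave woodrats (0.912). The interaction of Oat was not called (limma, adjusted p = 0.218), and without Great Basin juniper animal 4 its Great Basin difference was 1.48 (adjusted p = 0.0505). Aldh5a1, of the breakdown of the transmitter GABA, was higher by 0.52 in Mojave woodrats (limma, adjusted p = 0.0389), a call that was lost on leaving out any of 10 of the 16 animals. Of 13 branched-chain genes, the propionate enzyme Pccb was higher by 0.47 in Mojave (limma, adjusted p = 0.00273) and 0.40 in Great Basin woodrats (0.00938). With median centring the Mojave difference of Pccb was 0.03 (limma, adjusted p = 0.899), and that of Aldh5a1 was 0.10 (0.74). The valine enzyme Hibch was lower on creosote by 0.61 in Great Basin woodrats (limma, adjusted p = 0.0291), a call lost on leaving out any of 6 animals. In the proline list 0 of 3 passed in either population, and Pycr1, of proline synthesis, passed in the average over both (0.19; limma, adjusted p = 0.0291).

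Tat and Sds are known targets of hormones in rat liver, so 31 genes that respond to glucocorticoids or glucagon, or regulate liver genes, were read beside them. Of these, 5 were higher and 0 lower in Mojave woodrats, and 3 were higher and 0 lower in Great Basin woodrats, with medians of 0.02 and 0.00. The share called higher over all genes was 3.83% in Mojave and 2.08% in Great Basin woodrats. G6pc, the last enzyme of glucose release, was higher by 1.67 in Mojave (limma, adjusted p = 0.000644) and 1.36 in Great Basin woodrats (0.0021). Its second probe stood at 0.67 in Mojave (0.0194) and at 0.28 in Great Basin woodrats, where it was not called (0.405). The transcription factor Klf15, known in mice for its control of amino acid breakdown, was higher by 0.84 in Mojave (limma, adjusted p = 0.00595) and 1.05 in Great Basin woodrats (0.00133). The Mojave call of Klf15 was lost with median centring (0.38; limma, adjusted p = 0.149), with the red channel alone (0.55; 0.109), without slide 3 (0.71; 0.0534) and without slide 4 (0.86; 0.0726). Crem, a factor of the cyclic AMP response, was higher by 0.93 in Mojave (limma, adjusted p = 0.00417) and 0.65 in Great Basin woodrats (0.0372), the second of which was lost on leaving out any of 8 animals. The second Crem probe stood at 0.48 in Mojave and 0.32 in Great Basin woodrats and was called in neither (limma, adjusted p = 0.106 and 0.351).

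In Mojave woodrats Tsc22d3, a glucocorticoid-induced gene, was higher by 1.37 (limma, adjusted p = 0.00706), while its second probe stood at 0.13. The glucocorticoid receptor Nr3c1 was higher by 0.49 (limma, adjusted p = 0.0284) and by 0.85 on its second probe (0.00178). Neither gene was called in Great Basin woodrats, where the second probes of Tsc22d3 and Nr3c1 stood at 0.11 and 0.27. A difference between the populations was not shown, as 0 interactions were called over all genes. The Nr3c1 call on its brightest probe was lost without Mojave creosote animal 1 (0.0763) or 4 (0.067) or Mojave juniper animal 1 (0.103) or 3 (0.0567), and with median centring its difference was 0.04 (0.905). Among other hormone targets, Pck1, of glucose synthesis, stood at -0.61 in Mojave and -0.63 in Great Basin woodrats and was not called (limma, adjusted p = 0.341 in each). Fkbp5 stood at -0.18 in Mojave and 0.21 in Great Basin woodrats. Pck1 and Fkbp5 were picked after their values were seen. Any part of hormones in the differences of Tat and Sds was not tested.

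**Figure D3:**
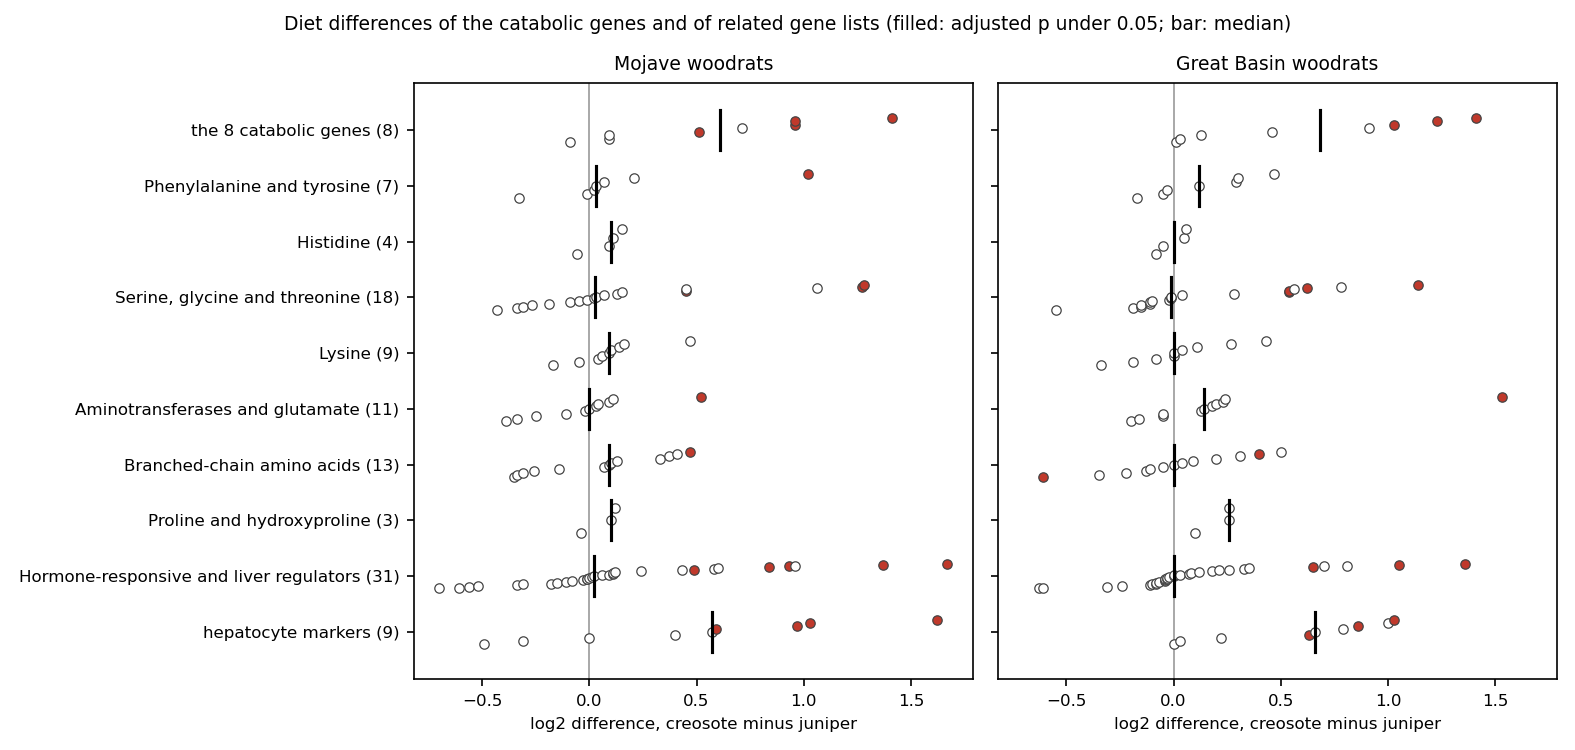
Creosote minus juniper on the log2 scale for each gene of the 8-gene set, of 8 related lists and of the hepatocyte markers, in Mojave (left) and Great Basin woodrats (right), with filled points at a limma adjusted p under 0.05 and a bar at each median; numbers in brackets count the genes tested. The medians of the set (0.61 and 0.68) and of the hepatocyte markers (0.57 and 0.66) lie to the right of those of the 8 lists. The set and the lists were chosen with results of the same animals known.

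Hepatocyte markers moved with the set. Of 11 listed markers, 9 were tested, and 4 were higher and 0 lower on creosote in Mojave woodrats, where Alb stood at 1.62, Ttr at 1.03, Fgb at 0.97 and Ambp at 0.59. In Great Basin woodrats 3 were higher and 0 lower, namely Cps1 at 1.03, Ahsg at 0.86 and Ambp at 0.63. The share called higher over all genes was 3.83% in Mojave and 2.08% in Great Basin woodrats. The mean log2 ratio of the 9 markers per array was 0.36 to 0.71 in Mojave creosote animals, against -0.08 to 0.16 in Mojave juniper animals. It was 0.54 to 0.89 in Great Basin creosote animals, against 0.03 to 0.10 in Great Basin juniper animals. Other markers of the same cells did not move this way: Serpina1 stood at 0.00 and 0.03, and Hnf4a at -0.31 and 0.00. The part of the hepatocyte markers in the differences of Tat, Hal, Sds and Fah was not tested, and in whole liver fewer cells of a type and less RNA per cell cannot be told apart.

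Markers of other cells gave at most 2 called genes per list in either population. Among all genes tested, 3.83% were called higher and 5.73% lower in Mojave woodrats. In Great Basin woodrats the shares were 2.08% and 1.95%. Of the 6 Kupffer cell markers tested, Cd14 was lower on creosote by 0.54 in Great Basin woodrats. Of 7 stellate markers, Rgs5 was higher by 1.23 there, and of 4 endothelial markers Xlkd1 was higher by 0.56 in both populations. Of 6 markers of the exocrine pancreas, Amy2 was higher by 2.23 in Mojave and 1.89 in Great Basin woodrats and Ela1 by 0.59 in Mojave woodrats, while Prss1, Pnlip and Cpa1 lay between -0.05 and 0.16. The single cholangiocyte marker tested, the 3 lymphocyte markers and the 2 erythroid markers had 0 called. The mean log2 ratio of the pancreas list was 0.20 to 0.44 in Mojave creosote, -0.39 to -0.12 in Mojave juniper, 0.08 to 0.34 in Great Basin creosote and -0.14 to 0.02 in Great Basin juniper animals. Its part in the results was not tested.

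**Figure D4:**
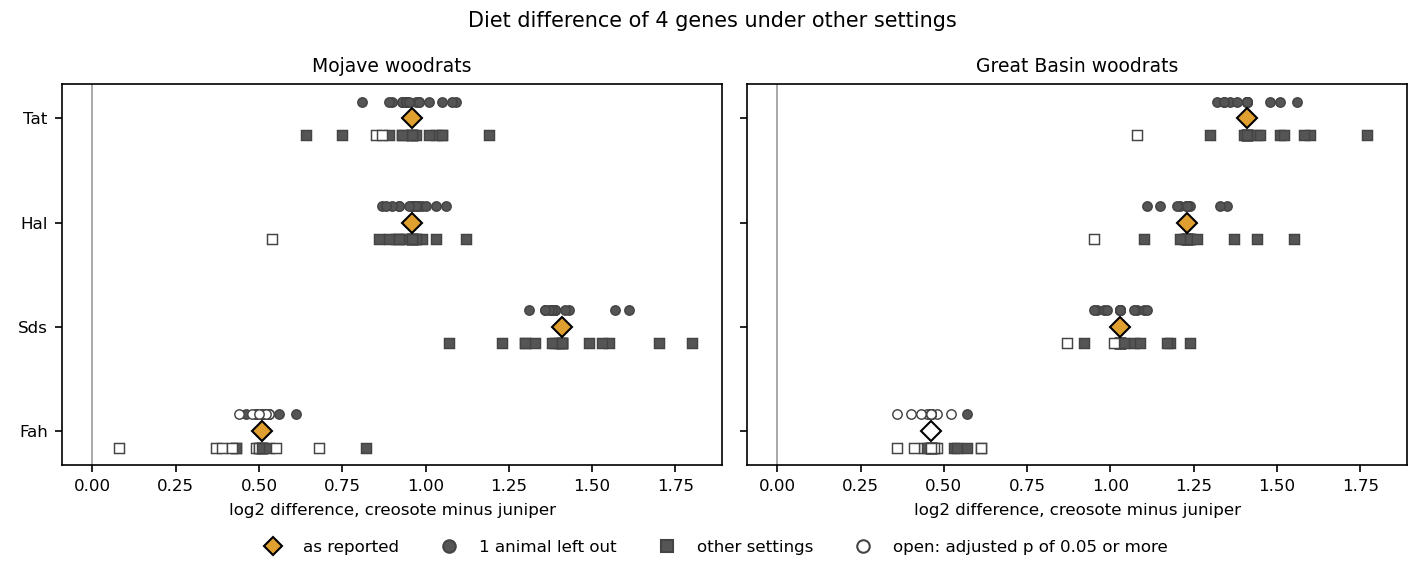
Creosote minus juniper on the log2 scale for Tat, Hal, Sds and Fah as reported (diamonds), with 1 animal left out (circles) and under other settings of the processing (squares), in Mojave (left) and Great Basin woodrats (right); open symbols had a limma adjusted p of 0.05 or more. All differences lie above 0, those of Tat, Hal and Sds are mostly filled, and those of Fah, between 0.08 and 0.82, are open in most of the settings.

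Over the 33 other settings, the Tat difference ranged from 0.64 to 1.19 in Mojave and from 1.08 to 1.77 in Great Basin woodrats, and passed in 31 and 32 of them. Hal ranged from 0.54 to 1.12 in Mojave and from 0.95 to 1.55 in Great Basin woodrats, passing in 32 of 33 in each. Sds ranged from 1.07 to 1.80 in Mojave, where it passed in all 33, and from 0.87 to 1.24 in Great Basin woodrats, where it passed in 31. Fah passed in 15 of 33 in Mojave and in 6 of 33 in Great Basin woodrats. Got1 passed in 0 of 33 in either population.

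Among the called genes of the lists, Gchfr, Gcsh, Gnmt and G6pc passed in all 33 settings in Mojave woodrats, and Gnmt and Klf15 in all 33 in Great Basin woodrats. The other Mojave calls held in 31 of 33 settings for Pccb and Tsc22d3, 30 for Crem, 29 for Klf15, 24 for Agxt, 22 for Nr3c1 and 14 for Aldh5a1. The other Great Basin calls held in 31 of 33 settings for G6pc and Gcsh, 29 for Agxt and Oat, 28 for Pccb, 25 for Dmgdh, and 19 for Crem and Hibch. In males alone the Great Basin difference was 0.22 for Dmgdh and -0.40 for Hibch, and neither was called (limma, adjusted p = 0.426 and 0.452).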

How the data were processed

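Per the file headers, the deposited scanner files were written by Agilent Feature Extraction, version 9.1.3.1 in the submitters' processing notes. As deposited, they hold linear intensity values per spot (mean signal and median local background of both dyes) and processed intensities that the software had already background-subtracted and dye-normalised. As deposited they also hold a log10 ratio of the dyes, which the software made from the processed signals. In the series table that the authors deposited, each value is the log2 of processed red over processed green, to within 5e-10, with column medians from -0.193 to -0.019.

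Mean and background intensities were analysed in R 4.3.3 with limma 3.58.1: normexp background correction with an offset of 50, loess within each array with control and outlier spots at weight 0, outlier spots left out, and spots of a probe averaged. Probes entered the tests where Cy5 was well above background on 4 or more of the 16 arrays and each group had at least 2 values, and a gene was read from its brightest kept probe. Of 45018 spots per array, 1639 were controls. Of 41012 probes, 30122 were kept, for 26496 genes, of which 3025 had more than 1 kept probe. The model held a mean for each of the 4 groups and a term for sex, over all 16 arrays (11 residual and 4.02 prior degrees of freedom). Tests were two-sided, adjusted by Benjamini-Hochberg over 26496 genes, with a threshold of 0.05 and 95% intervals. Precision is limited by how many arrays there are, with a median standard error of 0.0964 for the Mojave diet difference, 0.0892 for the Great Basin one and 0.131 for the interaction. The fitting code was tested on simulated data.

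The dyes were not exchanged on any array. The probes are rat sequences on woodrat RNA, so a mismatch weakens a signal, and levels of different genes were not compared. Probe sequences and genome positions were not used here. Symbols are those of the array design. Nothing in the labels pairs animals across groups: the deviations of animals with the same replicate number correlated between -0.17 and 0.14, and the number was not used in the model. The 8 genes and the lists were chosen with earlier results of these data known. The genes named are all members, the called genes of each list up to 6 (or the largest where 0 passed), and the 5 genes closest to the mean deviation of the members, of which 1 is not reported here. The sex term was read after the data had been seen. Markers, Gpt1, Pck1, Fkbp5 and X13119 were named as well after their values were seen. Alternatives were another offset, the processed signals, median centring, the red channel alone, other filters, slide or replicate number as a block, no sex term, males only, all kept probes, array weights, outlier spots kept (chosen after seeing the data), and leaving out each slide and each animal.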

Additional observations from a re-analysis of the deposited data

Results flagged for a closer look

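In 30 groups of 4 animals the highest or lowest value was compared with the gap to its neighbour, which chance marks in about 1 in 20 groups, and 2 groups were marked. Got1 stood at -2.19 in Great Basin juniper animal 3, a male on slide 1, while the other animals of that group lay between -0.23 and -0.10, so that the gap made up 0.94 of the group's range. Hpd stood at 0.14 in Mojave juniper animal 4, a female on slide 2, while the others of that group lay between -0.06 and -0.04 (0.90 of the range).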

How the results depend on the processing

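With each array centred on its median in place of loess, 2 of the 8 genes passed for diet in Mojave woodrats, 1 (Fah, -0.73, limma adjusted p = 0.0336) for population on creosote and 1 (Tat) for the interaction. In males alone 2 passed in Mojave and 0 in Great Basin woodrats, and without slide 4, 2 passed in Mojave woodrats; fewer animals enter both fits. Leaving out 1 animal at a time gave 3 to 4 genes in Mojave, 3 to 4 in Great Basin woodrats, 4 for the averaged diet difference, and 0 for each population comparison and the interaction. With the replicate block, 3 passed in Mojave, 4 in Great Basin woodrats and 4 on average, Fah being 0.37 (adjusted p = 0.089) in Mojave and 0.54 (0.0222) in Great Basin woodrats; only 2 of 16 arrays correlated best with their own number. The directions of dim genes turned. Hgd was -0.29 in Great Basin, -0.05 in Mojave woodrats and -0.17 on average with the processed signals. In Great Basin woodrats Hgd was -0.05 with the red channel alone, -0.05 in males, -0.07 without slide 3 (0.00 on average) and -0.05 to 0.05 leaving out 1 animal. Aass was 0.01 on average with median centring, 0.00 without slide 4 and -0.06 to 0.00 leaving out 1 animal; in Great Basin woodrats it was -0.01 without slide 2, -0.02 without slide 3 and -0.02 to 0.07 leaving out 1 animal. The interaction was -0.11 for Sds with median centring and 0.02 for Hal in males. Where no fewer animals entered, the cause was not tested. Over all genes, calls for diet numbered 2532 in Mojave and 1069 in Great Basin woodrats, against 1069 and 153 in males, 1087 and 1400 with the red channel, 780 and 664 without slide 4, 1038 and 681 without slide 3, 1709 and 391 without slide 1, and 1818 and 359 without slide 2. Leaving out 1 animal gave 1583 to 2756 and 630 to 1239. The share of higher calls was 40% in Mojave and 51.6% in Great Basin woodrats, against 13.7% and 63.5% with median centring, where 4768 and 1158 were called. For population on creosote 19 genes were called, against 3129 with median centring and 0 to 475 leaving out 1 animal; for the interaction 0, against 2430 and 0 to 334.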

Other observations

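Sex was a term of the model and not a question of the study. The male minus female estimate for Tat was -0.42 ± 0.15 on the log2 scale and was not called (limma, unadjusted p = 0.016, adjusted p = 0.996). For sex, 1 of 26496 genes passed. The model takes the same sex difference in all groups, which could not be checked in the Mojave creosote group. Within Great Basin creosote animals the 2 males stood at 0.01 and 0.10 and the 2 females at 0.93 and 0.90. Within Great Basin juniper animals the males stood at -1.32 and -0.74 and the females at -0.85 and -0.81. In Mojave juniper animals the males stood at -0.53 and -0.78 and the females at -0.28 and -0.62, and Mojave creosote animals were all male. The estimates for the other 7 genes lay between -0.23 (Got1) and 0.24 (Sds), with adjusted p of 0.996 or more.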
